A study of Rattus norvegicus with 8 samples.

Results

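Mbp, Mag, Ugt8, Gjb1 and Opalin, 5 genes of myelin and of the mature oligodendrocyte, were followed in the spinal cord of rats with experimental autoimmune encephalomyelitis (EAE), in which immune cells attack myelin. The genes were read from the probe sets whose sole symbol in the platform annotation is one of these names, 50 of the 80939 in the table: 15 for Mbp, 15 for Mag, 9 for Ugt8, 3 for Gjb1 and 8 for Opalin. A probe set is a small group of probes that reads 1 exon or a piece of it. The EAE group held 4 female Lewis rats aged 16 weeks (217, 218, 219 and 241), each given 50 µg of MBP from guinea pig brain under the skin at the tail base, in an incomplete Freund's adjuvant to which M.Butiricium was added at 4.0 mg/ml, and sampled 13 days later, when disease peaked. The control group held 4 untreated littermates of the same sex, strain and age (193, 194, 195 and 196). Each rat gave RNA of 1 whole cord to 1 exon array. Controls received neither adjuvant nor myelin protein, so the effects of both are contained in every difference, and the labels name no litter or batch for a rat.

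Oligodendrocytes wrap axons of the central nervous system in myelin, a stack of membrane that is rich in cholesterol and galactolipids and is held together by a few abundant proteins. Mbp, myelin basic protein, joins the cytoplasmic faces of that membrane, and it is also the antigen that was injected here. Mag, myelin-associated glycoprotein, is a sialic acid-binding adhesion protein of the innermost wrap, facing the axon. Ugt8 makes galactosylceramide, the main galactolipid of myelin, Gjb1 encodes connexin 32, which forms gap junction channels in the sheath, and Opalin is a membrane glycoprotein of differentiated oligodendrocytes.

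All 5 genes fell in EAE. The fall was 2.26-fold for Ugt8, 2.08-fold for Gjb1, 1.93-fold for Opalin, 1.58-fold for Mag and 1.34-fold for Mbp, and for each gene the 4 EAE rats lay below the 4 controls. Among the 6961 genes tested, 17.4% fell at an adjusted p under 0.05 (limma, Benjamini-Hochberg over all genes), and 19.2% had every EAE rat below every control. A gene's value on an array is the mean log2 intensity of its measured probe sets, and it serves only to compare arrays for the same gene. In RNA from whole cord, fewer oligodendrocytes, less RNA in each of them and more RNA from other cells cannot be told apart.

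Ugt8 had gene values of 10.65, 10.24, 10.71 and 10.48 in EAE rats 217, 218, 219 and 241, against 11.47, 11.82, 11.55 and 11.94 in controls 193, 194, 195 and 196. A wide gap parted the groups, with EAE 218 lowest. The mean was 10.52 ± 0.21 in EAE and 11.70 ± 0.22 in controls (SD, n = 4 each), a change of -1.18 ± 0.15 on the log2 scale (SE, limma adjusted p = 0.00022). Of all genes tested, 0.503% had a lower change.

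Gjb1 had gene values of 5.08, 5.16, 4.90 and 4.91 in the EAE rats, in the same order, against 5.94, 6.12, 6.23 and 5.99 in the controls. The groups did not overlap, and no rat stood apart from its group. The change was -1.06 ± 0.11 (limma adjusted p = 7.07e-05), and 0.876% of genes had a lower one. Background was read from 2014 probe sets of olfactory receptor genes, whose main site of expression is the nose. The 95th percentile of their group means was 5.13 in EAE and 5.21 in controls. All 3 probe sets of Gjb1 were above that limit in controls, while 2 of them were not in EAE (4.91 and 4.67), so the fall of these 2 is measured against the floor of the arrays.

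Opalin had gene values of 6.77, 6.74, 7.01 and 7.08 in the EAE rats, against 8.26, 8.01, 7.21 and 7.91 in the controls. Control 195 was the lowest control and lay just above the highest EAE rat. The spread was wider in controls (SD 0.17 in EAE and 0.45 in controls). The change was -0.95 ± 0.21 (limma adjusted p = 0.00634), and 1.47% of genes had a lower change.

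Mag had gene values of 7.25, 7.08, 7.18 and 7.34 in the EAE rats, against 8.05, 7.73, 7.64 and 8.05 in the controls. The groups did not overlap, with control 195 again the lowest control. The change was -0.66 ± 0.13 (limma adjusted p = 0.00322), and 6.23% of genes had a lower one.

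Mbp had gene values of 9.18, 9.07, 9.13 and 9.31 in the EAE rats, against 9.60, 9.56, 9.52 and 9.71 in the controls. Both groups were narrow (SD 0.10 in EAE and 0.08 in controls) and did not overlap. The change of -0.42 ± 0.10 was the smallest of the 5 (limma adjusted p = 0.00865). A lower change was found in 16.5% of all genes, so a fall of this size was common in these cords. The median change over all genes was -0.11.

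**Figure D1:**
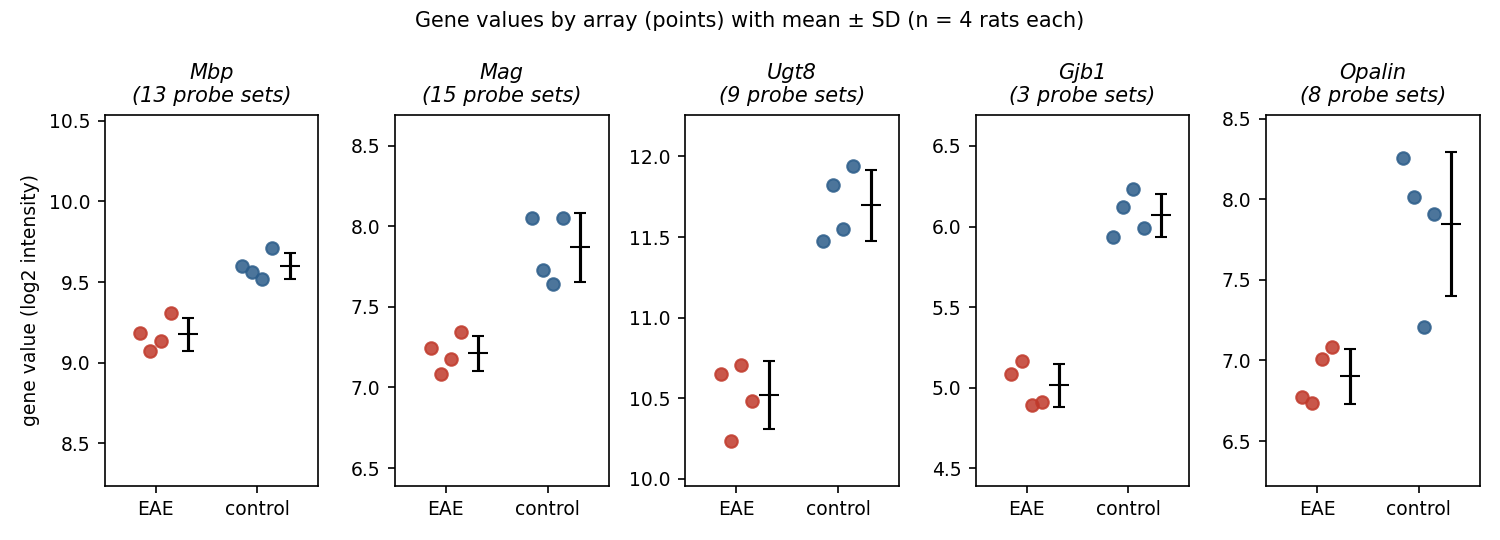
Gene values (log2 intensity, vertical axis) of Mbp, Mag, Ugt8, Gjb1 and Opalin in 4 EAE rats (red, left) and 4 controls (blue, right), 1 point per array, with mean ± SD in black. The vertical axes span the same number of log2 units from different starts, and in each panel the red points lie below the blue ones, by the least for Opalin, where EAE 241 is at 7.08 and control 195 at 7.21.

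Whether one gene fell more than another was tested on the difference between their values on each array, over all 10 pairs. The change of Mbp lay above that of Ugt8 by 0.75, of Gjb1 by 0.63 and of Mag by 0.23, each with an exact permutation p of 0.0286 (2-sided, n = 4 each), the smallest that 4 against 4 arrays can give. After Benjamini-Hochberg adjustment over the 10 pairs these 3 exact tests had p = 0.0952, and no pair passed. With this floor at least 6 of the 10 pairs would have to reach 0.0286 for any to pass, so missing the threshold says little. The value of Mbp minus that of Ugt8 was -1.34 ± 0.21 in EAE and -2.10 ± 0.18 in controls (SD, n = 4 each), with no overlap, and the difference in change was 0.69 to 0.83 without single arrays. Over all 14 alternatives it was 0.62 to 0.83, against 0.31 to 0.72 for Mbp minus Gjb1 and 0.12 to 0.28 for Mbp minus Mag. The 0.62 and the 0.31 both came with the median of probe sets (adjusted exact p = 0.333 for each). The 0.12 came with the 50th percentile filter and with brighter probe sets only (adjusted exact p = 0.286). In those same settings the adjusted exact p was 0.143 for Mbp minus Ugt8 and for Mbp minus Gjb1. Between Ugt8 and Gjb1 (difference in change -0.12, exact p = 0.6), Ugt8 and Opalin (-0.23, exact p = 0.457) and Gjb1 and Opalin (-0.11, exact p = 0.8) the arrays of the groups overlapped. Gjb1 minus Opalin turned to 0.16 without control 195, and Ugt8 minus Gjb1 to 0.023 without EAE 218. The Gjb1 value in EAE (5.02) is under the background limit, so differences that involve Gjb1 are limited by the floor of the arrays.

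The bases before the start of a gene are shown for the 3 genes with the largest falls and for Mag, all of which fell in EAE. Searched on both strands were ACAATG and ACAAAG, core letters bound by SOX proteins such as SOX10, and CTGGCAC and CTGGTAC, letters bound by MYRF. Both factors act on oligodendrocyte genes. Each sequence is the 250 bases upstream of the RefSeq start (build GRCr8), read 5′ to 3′ on the strand of the gene, and capitals mark the matches.
Opalin (chr1:249858191-249858440, minus strand): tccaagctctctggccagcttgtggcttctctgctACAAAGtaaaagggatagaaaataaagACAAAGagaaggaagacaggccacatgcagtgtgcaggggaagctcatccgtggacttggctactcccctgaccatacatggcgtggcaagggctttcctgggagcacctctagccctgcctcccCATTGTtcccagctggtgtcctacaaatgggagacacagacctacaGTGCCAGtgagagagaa
Mag (chr1:95291045-95291294, minus strand): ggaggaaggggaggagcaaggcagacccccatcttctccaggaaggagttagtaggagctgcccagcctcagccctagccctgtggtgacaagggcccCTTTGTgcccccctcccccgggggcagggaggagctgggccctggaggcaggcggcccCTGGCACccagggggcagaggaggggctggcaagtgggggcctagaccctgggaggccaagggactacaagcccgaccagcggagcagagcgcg
Ugt8 (chr2:217007168-217007417, minus strand): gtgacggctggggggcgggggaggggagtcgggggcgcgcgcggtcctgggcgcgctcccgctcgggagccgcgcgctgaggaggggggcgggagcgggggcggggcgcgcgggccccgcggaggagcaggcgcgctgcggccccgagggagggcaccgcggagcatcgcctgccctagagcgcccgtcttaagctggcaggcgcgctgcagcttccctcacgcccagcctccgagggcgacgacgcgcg
Gjb1 (chrX:70541595-70541844, plus strand): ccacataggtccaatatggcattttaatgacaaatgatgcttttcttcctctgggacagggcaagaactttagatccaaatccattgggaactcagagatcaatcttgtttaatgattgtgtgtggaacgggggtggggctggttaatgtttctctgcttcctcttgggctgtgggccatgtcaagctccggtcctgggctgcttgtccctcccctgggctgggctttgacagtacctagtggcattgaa

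The Opalin window held 4 matches, 3 of the SOX letters and 1 of the MYRF letters, and the Mag window held 1 of each kind. Those of Ugt8 and Gjb1 held none of these letters. No match overlaps another. Of 33469 windows of this length in the RefSeq table, 25.3% held ACAATG or ACAAAG and 5.48% held CTGGCAC or CTGGTAC. A match describes letters and is not a measured binding site. The Ugt8 window was 81.2% G or C, and 99.2% of windows had a lower share, against 70.0% for Mag, 53.2% for Opalin and 49.2% for Gjb1.

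At the level of single probe sets, 48 of the 50 passed the filter on dim values (a log2 intensity of 3.98, the 25th percentile of the table, reached on 4 or more arrays). The 2 left out, both of Mbp, were dim in both groups. Of the 48, 47 had a lower mean in EAE, where 57.8% of all 58784 measured probe sets did. At an adjusted p under 0.05 (limma over all measured probe sets) 27 fell and 0 rose, where 10.1% of all measured probe sets fell and 10.1% rose. At an unadjusted p under 0.05 in the same limma fit, 1 was higher, Mbp 6714171. The probe sets that fell were 9 of 9 for Ugt8, 3 of 3 for Gjb1, 4 of 8 for Opalin, 6 of 15 for Mag and 5 of 13 for Mbp. Probe sets of 1 gene read the same RNA on the same arrays and are not replicates of one another.

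In Ugt8 the changes of the 9 probe sets ran from -1.77 to -0.79. The largest fall was in 5792403, with 9.33, 8.30, 9.21 and 8.94 in the EAE rats, against 10.43, 10.97, 10.34 and 11.13 in the controls (-1.77 ± 0.27, limma adjusted p = 0.00124). The smallest was in 6430331, with 11.44, 11.24, 11.35 and 11.36 in EAE, against 11.85, 12.15, 12.15 and 12.40 in controls (-0.79 ± 0.17, adjusted p = 0.00941). The groups overlapped in neither.

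The size of the Ugt8 fall followed the brightness of the probe set. Over the 9 probe sets the Pearson correlation of mean log2 intensity with change was 0.952, the brighter ones falling less. This is a description of probe sets that share the same 8 arrays, and brightness mixes the amount of RNA with how well the probes bind. Across the 662 genes that fell and had at least 8 measured probe sets, the same correlation had a median of -0.018 and quartiles of -0.267 and 0.239, and 99.8% of these genes had a lower value than Ugt8. For Mag it was 0.316, for Opalin -0.379 and for Mbp -0.642.

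**Figure D2:**
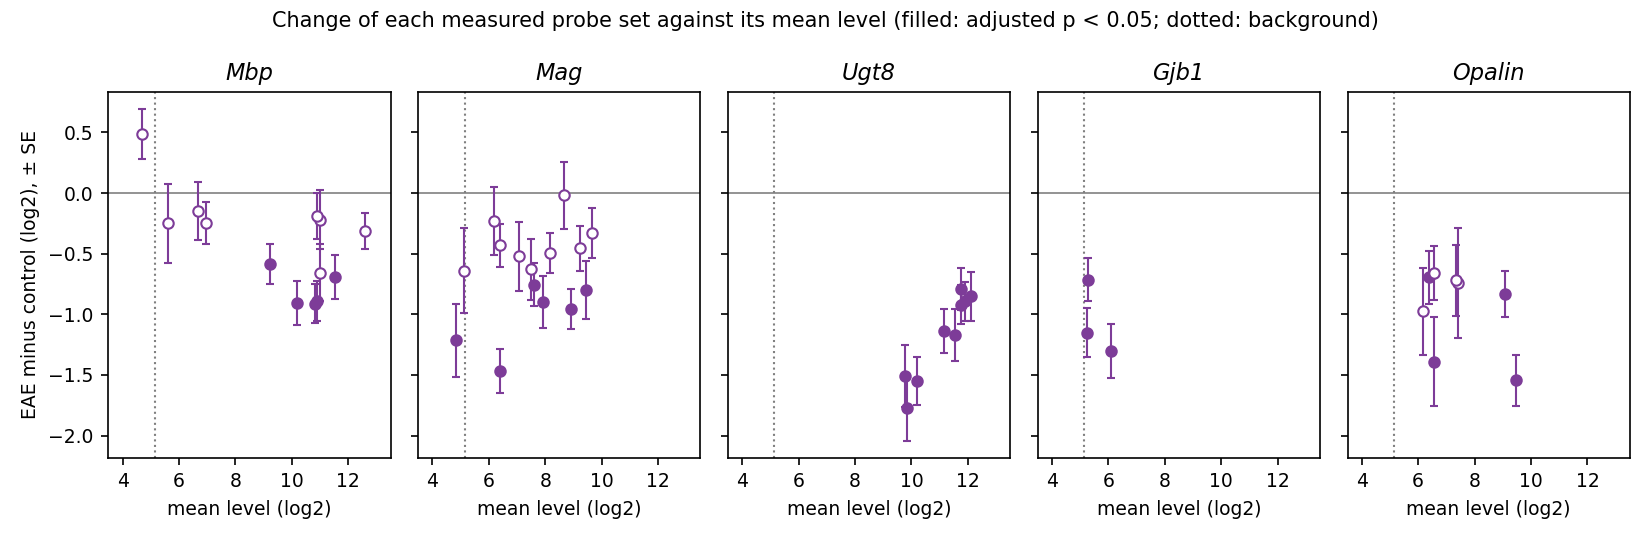
Change between EAE and control (log2, vertical axis, bars are SE) of each measured probe set against its mean log2 intensity over the 8 arrays (horizontal axis), by gene. Filled points passed at an adjusted p under 0.05 and the dotted line marks background (5.15); the Ugt8 points climb from -1.77 towards -0.79 with brightness, while those of Mbp begin with a point at 0.49 below the background line.

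The probe sets of Mbp were divided. Its 5 probe sets that fell changed by -0.91 to -0.58, led by 5709160 with 10.33, 10.23, 10.35 and 10.51 in the EAE rats, against 11.20, 11.30, 11.14 and 11.42 in the controls (-0.91 ± 0.16, limma adjusted p = 0.00284). Of like brightness but chosen after their values were seen, 6447805 had 10.59, 10.79, 10.91 and 10.85 in EAE, against 11.38, 10.98, 10.77 and 10.79 in controls (-0.19 ± 0.19, adjusted p = 0.523). Likewise 6622205 had 10.94, 10.39, 10.98 and 11.20 in EAE, against 11.49, 11.22, 10.58 and 11.10 in controls (-0.22 ± 0.24, adjusted p = 0.571). Both overlapped between the groups, unlike 5709160.

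The smallest change of Mbp was in 5792706, with 6.56, 6.83, 6.40 and 6.59 in EAE, against 7.13, 6.37, 6.34 and 7.15 in controls, where the groups overlapped (-0.15 ± 0.24, limma adjusted p = 0.703). The brightest probe set of Mbp, 6082003, also chosen after its values were seen, had 12.38, 12.40, 12.43 and 12.46 in EAE, against 12.68, 12.77, 12.71 and 12.76 in controls. Its groups did not overlap, yet the change of -0.31 ± 0.15 did not pass (adjusted p = 0.166). The one measured probe set with a higher mean in EAE, 6714171, had 5.29, 4.67, 4.82 and 4.98 in EAE, against 4.46, 4.69, 4.06 and 4.59 in controls (0.49 ± 0.21, adjusted p = 0.123). Its groups overlapped, and it lay at background in both.

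In Mag the largest fall was in 6697543, with 5.60, 5.44, 6.02 and 5.65 in the EAE rats, against 7.30, 7.02, 7.08 and 7.19 in the controls. The groups did not overlap, EAE 219 being the highest EAE rat, and the fall was 2.77-fold (-1.47 ± 0.18, limma adjusted p = 0.000266). The smallest difference was in 6067354, with 9.03, 8.57, 8.35 and 8.70 in EAE, against 9.23, 8.63, 7.95 and 8.91 in controls, where the groups overlapped (-0.02 ± 0.27, adjusted p = 0.969).

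In Opalin the largest fall was in 6569048, with 8.68, 8.30, 8.81 and 8.94 in EAE, against 10.23, 10.26, 9.84 and 10.56 in controls (-1.54 ± 0.21, limma adjusted p = 0.000609). The smallest difference was in 6060209, with 6.14, 6.01, 6.25 and 6.56 in EAE, against 7.26, 7.01, 6.38 and 6.94 in controls (-0.66 ± 0.22, adjusted p = 0.0608). The first did not overlap, and in the second control 195 alone reached into the EAE range. Without control 195 all 8 probe sets of Opalin fell, and without control 193, control 194, EAE 217 or EAE 218 the number was 2.

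In Gjb1 the largest fall was in 5962640, with 5.37, 5.93, 5.35 and 5.19 in EAE, against 6.57, 6.78, 7.20 and 6.498 in controls (-1.30 ± 0.22, limma adjusted p = 0.00265). The smallest was in 5851693, with 5.03, 4.61, 5.12 and 4.89 in EAE, against 5.59, 5.81, 5.50 and 5.62 in controls (-0.72 ± 0.18, adjusted p = 0.0173). Neither overlapped between the groups.

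The next comparison asked whether probe sets moved apart from the rest of their gene, the question of exon use for which the series was made. Mbp and Mag are each known to give several spliced transcripts, and Mbp also gives the longer golli transcripts from a start further upstream. The probe sets are not placed on exons or transcripts here. In the F test of limma's diffSplice, which asks whether the probe sets of a gene changed unequally, Mbp (adjusted p = 0.000895), Ugt8 (0.0306) and Mag (0.0371) passed, and Gjb1 (0.298) and Opalin (0.55) did not. Of the 5563 genes tested 26.6% passed. This F test pools the scatter of all probe sets of a gene. Those share the same arrays and are not replicates of one another, so its p-values may be too small. The Simes p instead combines the tests of single probe sets relative to their gene, described below. By it 729 genes passed in place of 1482. Mbp passed close to the threshold, and Mag (adjusted p = 0.0673) and Ugt8 (0.156) did not. The call of Mbp ended when probe sets under the 50th percentile were removed (adjusted p = 0.0588, with 0.00038 to 0.0588 over 13 alternatives). The call of Ugt8 ended without control 194, control 196, EAE 217, EAE 218 or EAE 241 (adjusted p up to 0.212). That of Mag ended without any array but control 193 or EAE 219 (up to 0.24).

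Each probe set was then set against the mean of the other measured probe sets of its gene on the same array. In this relative test 1.94% of 56816 probe sets were lower in EAE and 1.85% higher, and of the 48 read here 1 was lower and 1 higher. The lower one was Mag 6697543. Relative to the rest of Mag it stood at -1.76, -1.76, -1.24 and -1.82 in the EAE rats, against -0.81, -0.76, -0.60 and -0.93 in the controls. All EAE rats lay below all controls, and the relative change was -0.87 ± 0.19 (limma adjusted p = 0.0284). It missed the threshold without control 194, control 196, EAE 217, EAE 218 or EAE 241 (adjusted p up to 0.0917).

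The higher one was Mbp 6714171, the probe set at background. Relative to the rest of Mbp it stood at -4.22, -4.77, -4.67 and -4.69 in the EAE rats, against -5.57, -5.28, -5.92 and -5.55 in the controls. All EAE rats lay above all controls, with a relative change of 0.99 ± 0.20 (limma adjusted p = 0.0214). It missed the threshold without control 196, EAE 217 or EAE 241 (adjusted p up to 0.0717). The relative change also contains the fall of the other Mbp probe sets, which raises the relative value of any probe set held at the floor. The change of 6714171 itself, 0.49 ± 0.21, did not pass (limma adjusted p = 0.123). It lay at background in both groups, so whether its RNA rose cannot be read from these values.

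Another 3 probe sets of Mbp, chosen after their values were seen, differed the other way. Relative to the rest of the gene 5709160 was at 1.28 ± 0.03 in EAE and 1.80 ± 0.07 in controls (SD, n = 4 each; -0.53 ± 0.15, limma adjusted p = 0.0896). Likewise 6699172 was at 1.36 ± 0.04 in EAE and 1.86 ± 0.15 in controls (-0.50 ± 0.16, adjusted p = 0.117), and 6623886 at 0.61 ± 0.18 in EAE and 1.13 ± 0.02 in controls (-0.52 ± 0.17, adjusted p = 0.113). The groups overlapped in none of these 3, and none passed. Without variance moderation 5709160 (adjusted p = 0.00896) and 6699172 (0.0472) passed and 6623886 (0.0613) did not. In all, 8 of the 48 had every EAE rat below every control in relative value and 5 had every EAE rat above, where 6.16% and 6.54% of all probe sets did.

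**Figure D3:**
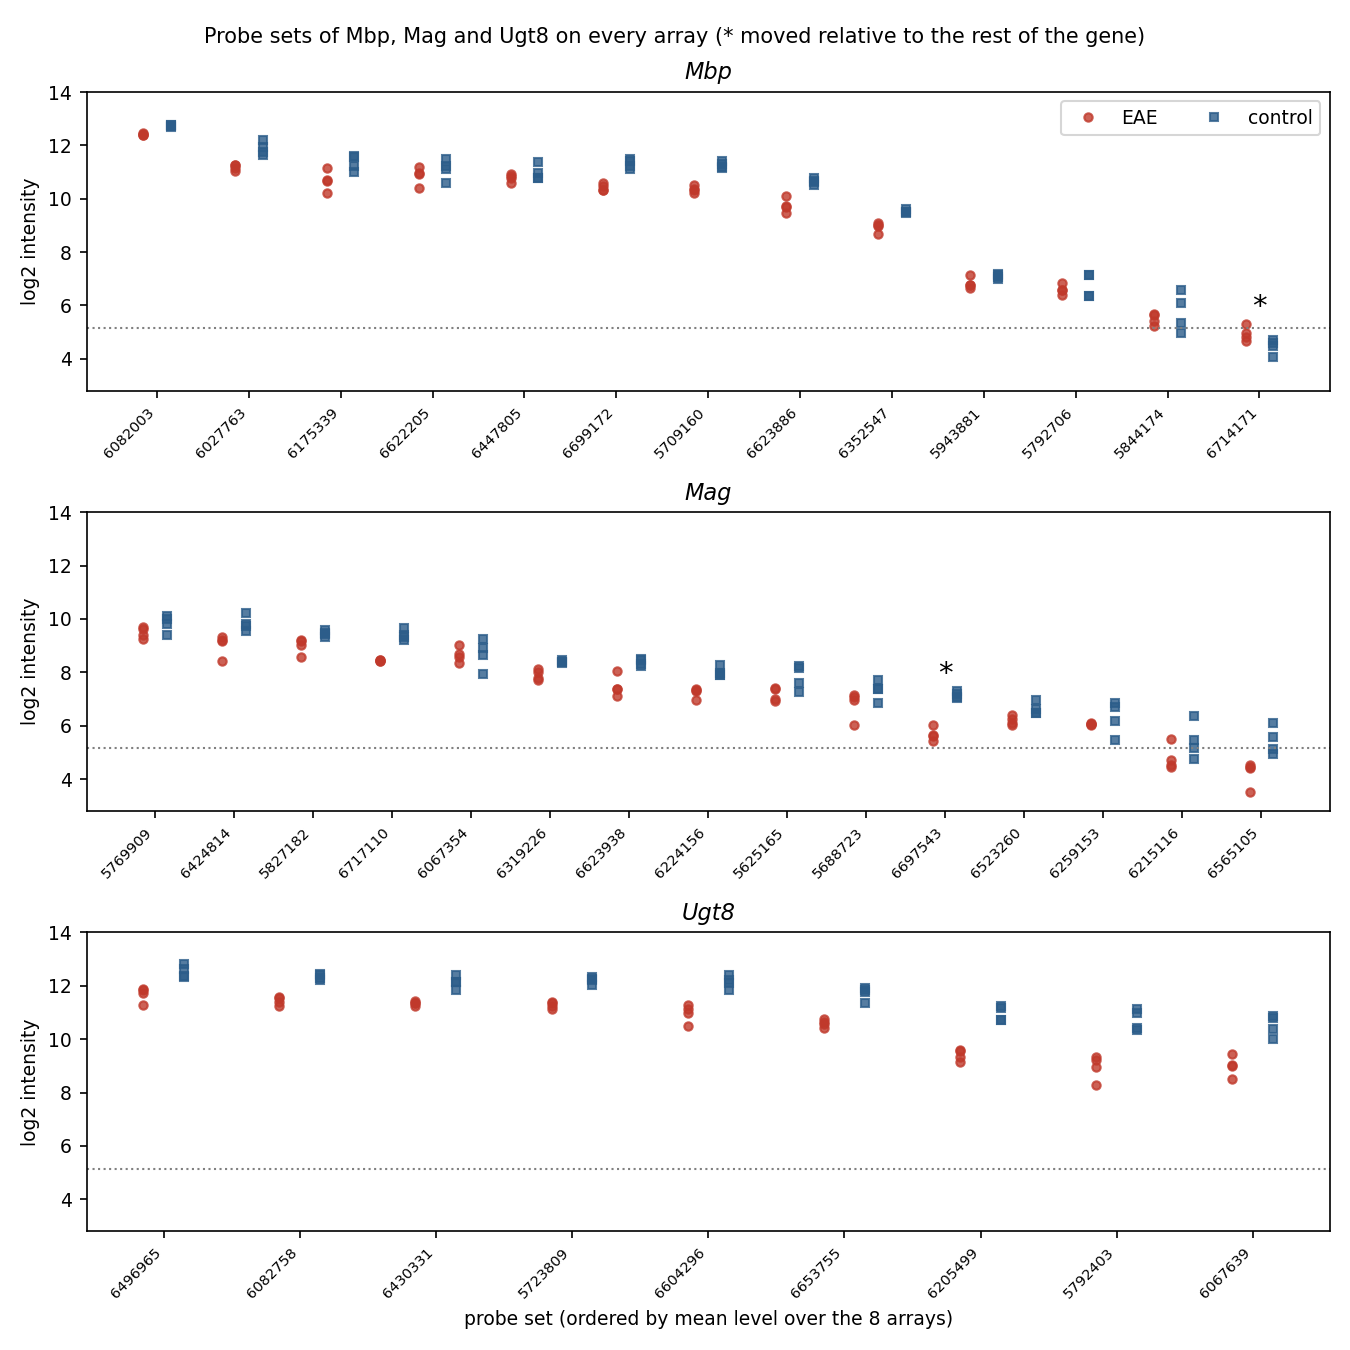
Log2 intensity (vertical axis) on 4 EAE arrays (red circles, left) and 4 control arrays (blue squares, right) for each measured probe set of Mbp, Mag and Ugt8, ordered by mean level (horizontal axis). The dotted line is background (5.15) and stars mark Mbp 6714171 and Mag 6697543, which passed relative to the rest of their gene; all 9 Ugt8 probe sets show a gap between the groups.

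Other genes of myelin were read from a list. Of all 6961 genes tested 17.4% fell and 13.7% rose, the shares to set beside the counts of this list and of those that follow. Of 32 measured genes in a list of myelin and mature oligodendrocyte genes, 13 fell, 1 rose and 18 did not pass, with a median change of -0.41 against -0.11 over all genes. Leaving out Mbp, Mag, Ugt8, Gjb1 and Opalin, 8 of 27 fell and 1 rose, with a median of -0.36. With each array centred on its median 22 of the 32 fell, where 1560 of all genes did, against 1213 as deposited, and the median gene moved by -0.068. With array quality weights 21 of the 32 fell, where 1873 of all genes did.

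Outside these 5 the largest fall of the list was in Tppp3, a tubulin-binding protein (6.74 ± 0.10 in EAE and 7.78 ± 0.13 in controls, -1.04 ± 0.11, limma adjusted p = 5.5e-05). Of 11 proteins of the sheath 5 fell and 0 rose, and 3 of the 5 were Mbp, Mag and Opalin. The other two were the tetraspanin Tspan2 (-0.87 ± 0.16, adjusted p = 0.00277) and the cytoskeletal protein Ermn (-0.60 ± 0.11, 0.00255). Other sheath proteins, named after their values were seen, did not pass: Mal (-0.43 ± 0.15, 0.0509), Mobp (-0.29 ± 0.11, 0.0659), Cnp (-0.20 ± 0.28, 0.621) and Mog (-0.13 ± 0.22, 0.705). The single rise of the larger list was in the small heat shock protein Cryab (0.62 ± 0.19, 0.0315).

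**Figure D4:**
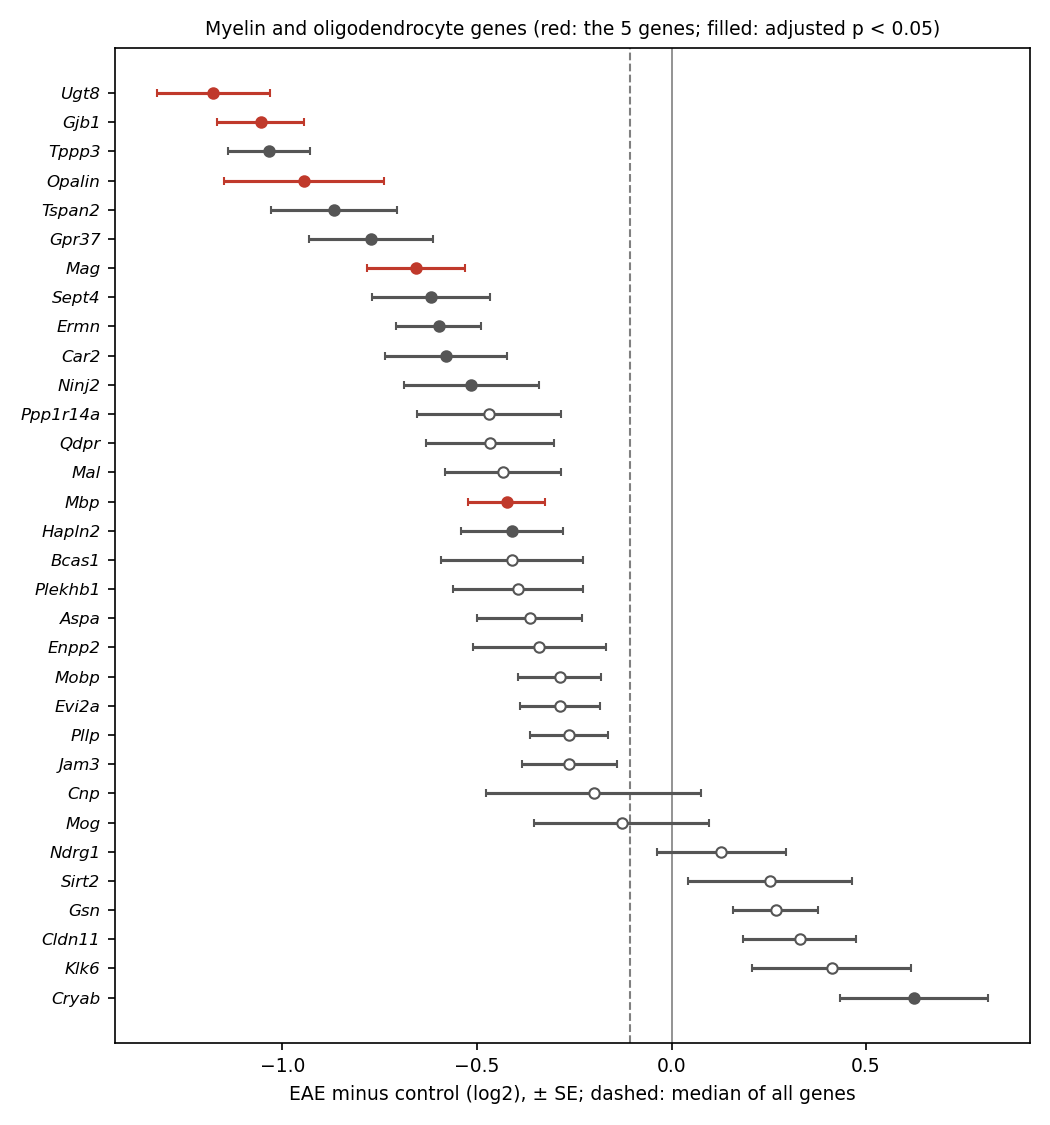
Change between EAE and control (log2, horizontal axis, bars are SE) of the 32 measured genes of the myelin and mature oligodendrocyte list. Mbp, Mag, Ugt8, Gjb1 and Opalin are in red, filled points passed at an adjusted p under 0.05, and the dashed line is the median change of all genes (-0.11); 26 of the 32 points lie below 0.

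Of 5 measured genes in a list of galactolipid and very long chain lipid genes, Ugt8 fell and Aspa and Degs1 did not pass. The other 2 rose: Galc, the lysosomal enzyme that degrades galactosylceramide (0.86 ± 0.16, limma adjusted p = 0.00292), and Psap, the precursor of the saposins that assist such enzymes (1.501 ± 0.15, 4.04e-05). Both are expressed by many cell types. Of 14 genes of cholesterol synthesis 13 fell and 0 rose (median -0.89), led by Idi1 (-1.85 ± 0.17, 2.87e-05) and Cyp51 (-1.63 ± 0.19, 0.000162). Of 7 connexins, Gjb1 and the neuronal Gjd2 (-0.66 ± 0.10, 0.00105) fell, and Gja1, the main connexin of astrocytes, rose (0.69 ± 0.17, 0.0113).

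Of 11 receptors and partners of Mag and related growth inhibitors, 4 fell and 0 rose, where 17.4% of all genes fell and 13.7% rose. They were Omg, a myelin glycoprotein that binds the Nogo receptor (-1.02 ± 0.18, limma adjusted p = 0.00239), Rtn4, which encodes Nogo (-0.40 ± 0.09, 0.0085), and the ganglioside-making enzymes St8sia1 (-0.49 ± 0.11, 0.00785) and B4galnt1 (-0.27 ± 0.09, 0.0474). B4galnt1 turned to 0.065 with the median of its probe sets in place of the mean (adjusted p = 0.832, with 0.00687 to 0.832 over its alternatives). Its call ended without any single array but control 193, and with no filter on dim probe sets. Of 11 genes of the node of Ranvier and its flanks, where myelin meets the axon, 6 fell and 0 rose, led by the sodium channels Scn2a1 (-0.85 ± 0.14, 0.00163) and Scn8a (-0.70 ± 0.18, 0.0165). Of 7 lineage factors of oligodendrocytes 3 fell and 0 rose: Id4 (-0.56 ± 0.14, 0.012), Sox10 (-0.41 ± 0.10, 0.0127) and Sox5 (adjusted p = 0.0015), which lay at background in both groups (4.52 in EAE and 5.14 in controls), so that the size of its change is not read. Of 7 genes of oligodendrocyte precursors Bcan (-0.66 ± 0.18, 0.0193) and Bmp4 (-0.43 ± 0.12, 0.0206) fell, and Vcan (0.75 ± 0.18, 0.0117) and Itpr2 (0.68 ± 0.12, 0.00205) rose. The call of Bcan ended without control 196, EAE 218 or EAE 241, without both control 195 and EAE 218, with the median of its probe sets and with unmoderated variances (adjusted p up to 0.163). That of Bmp4 ended without control 194, EAE 219 or EAE 241, with the 50th percentile filter, with brighter probe sets only and with the median (up to 0.193). The median also ended the calls of Gjd2, Sox10 and Id4, the 50th percentile filter those of Id4 and St8sia1, brighter probe sets only that of Id4, and the lack of moderation that of Scn8a (adjusted p between 0.0535 and 0.0748). Of the node genes that fell, Cntn1 lost its call without any single array but control 195, without moderation and with the median (up to 0.113). Cntnap1 lost it with the median (0.193).

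Markers of other cells moved in the same cords, where 17.4% of all genes fell and 13.7% rose. All 13 measured macrophage and microglia markers rose (median 3.44), and the mean of the list ran from 9.06 to 9.19 in EAE and from 5.69 to 5.75 in controls. All 7 T cell markers rose (median 1.98, list means 6.17 to 6.32 in EAE and 3.96 to 4.37 in controls). All 7 lay at background in controls, as did Cd74, Ccr2, Gpnmb, C1qc, Itgam and C1qa of the macrophage list. The sizes of these rises are therefore measured from the floor of the arrays. Of 12 neuron markers 6 fell and 0 rose, and their median of -0.42 lay beside the -0.41 of the myelin list. Of 10 astrocyte markers 3 rose and 1 fell, of 4 endothelial ones 1 rose and 1 fell, and the 1 measured B cell marker, Cd79b, passed as higher while at background in both groups (5.13 in EAE and 4.77 in controls). That call ended with median centring, the 50th percentile filter or brighter probe sets only, and without control 194, control 196, EAE 218 or EAE 241 (limma adjusted p up to 0.09). Of 9 genes of Schwann cells and peripheral nerve, Egr2 rose (0.77 ± 0.17, limma adjusted p = 0.00598) and Cdh19 fell (-1.30 ± 0.18, 0.00053), with list means of 5.56 to 5.98 in EAE and 5.73 to 6.30 in controls. Egr2 lay at background in controls (4.47) and just above it in EAE (5.24), so the floor limits the size of its rise. At an unadjusted p under 0.05 (limma), 1 gene of the sheath list was higher in EAE, Cldn11, and 0 genes of the cholesterol, Mag partner, node, lineage factor and neuron lists. The part of these other cells in the falls of the myelin genes was not tested.

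All arrays had a mean log2 intensity of 5.77, and their SDs ran from 2.11 to 2.26. Control 195 had the narrowest spread, and its olfactory receptor probe sets had a median of 3.77, where the other arrays had 3.16 to 3.49. Among the controls it had the lowest value of Mbp, Mag and Opalin and the highest of Gjb1. Without control 195 and EAE 218, the array with the next highest olfactory median, the changes were -1.13 for Ugt8, -1.05 for Gjb1, -1.10 for Opalin, -0.69 for Mag and -0.42 for Mbp, and all 5 passed.

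The genes whose values followed each of the 5 most closely over the 8 arrays were named by Pearson correlation, which here contains the difference between the groups. For Ugt8 they were Ermn (0.992), Dpp10, an auxiliary subunit of potassium channels (0.991), and Sparcl1 (0.991). For Mbp they were Dync1i2, a dynein chain (0.993), the clock gene Cry2 (0.991) and Rims2 of the presynaptic active zone (0.988). For Mag they were the sodium leak channel Nalcn (0.992), the diacylglycerol kinase Dgkg (0.992) and Tusc3 (0.99). For Opalin they were Mras (0.995), P2rx6 (0.993) and Tmx2 (0.991), and for Gjb1 Alg13 (0.986), Mark1 (0.983) and Inpp4b (0.983). The genes were picked on these same arrays, a choice that also favours high correlations of the deviations from the group means. Those correlations ran from 0.899 to 0.984 beside Ugt8, Mbp, Mag and Opalin, and from 0.517 to 0.837 beside Gjb1. Among the 5 genes themselves, over the same 8 arrays, these deviations ran with each other for Mbp and Mag (0.814) and for Mag and Opalin (0.704). Those of Gjb1 ran against Opalin (-0.813), Mag (-0.808), Mbp (-0.649) and Ugt8 (-0.34). Control 195 and EAE 218, with the highest olfactory medians of their groups (3.77 and 3.49), had their group's highest Gjb1 value. The same arrays had their group's lowest values of Mbp, Mag and Opalin. Gjb1 lay near background, and the part of array background in these correlations was not tested.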

How the data were processed

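RNA of 8 whole spinal cords, 4 with EAE and 4 untreated, was read on rat exon arrays. The table holds log2 probe set intensities as deposited by the authors. The submitters' processing notes name Affymetrix Expression Console, RMA and Partek, giving no version, role or order, with a genome build not given in the sources used here. The series text names a 2-way ANOVA in Partek, which was not used here. The platform annotation gave 76186 probe sets 1 symbol, 550 several and 4203 none. After the filter on dim values 62176 were measured, 58784 of them with 1 symbol, from 6961 genes.

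Group differences are EAE minus control, tested with limma (version 3.58.1, R 4.3.3) on genes, probe sets and relative values. diffSplice was run where a gene had 3 or more measured probe sets. Tests are 2-sided, p-values are Benjamini-Hochberg adjusted over the whole table at a threshold of 0.05, errors of changes are SE and those of means SD. Pairs of genes were compared with exact permutation tests. The number of arrays limits the precision. Scripts were tested on simulated data, and matplotlib 3.10.9 drew the figures. Promoter sequences are RefSeq's (GRCr8), shown for 4 of the 5 genes.

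The members, lists and alternatives were chosen with earlier results of these data known. By rule the text names the 5 genes, their probe sets of largest and smallest change or past the threshold relative to the gene, up to 4 passing genes of each list, and 3 genes each by likeness. Genes named outside it are marked. Alternatives changed the filter, the scaling, the summary of probe sets, the variance model and the arrays used.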

Additional observations from a re-analysis of the deposited data

Results flagged for a closer look

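Of 106 groups of 4 arrays examined (the 5 genes and their 48 measured probe sets, in EAE and in control), 2 had 1 array far from the other 3, and chance flags about 1 in 20 such groups. In Mag 6565105, EAE 218 lay at 3.51 while the other EAE rats lay between 4.43 and 4.51, a gap of 0.917 of the group's range. In Mag 5688723, EAE 219 lay at 6.02 and the others between 6.97 and 7.16, a gap of 0.83 of the range. None of the 10 groups of gene values was of this kind.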

How the results depend on the processing

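The falls of Mbp, Mag, Ugt8, Gjb1 and Opalin kept their direction and passed in all 17 alternatives, with changes of -0.52 to -0.37 for Mbp, -0.77 to -0.59 for Mag, -1.25 to -1.08 for Ugt8, -1.12 to -0.83 for Gjb1 and -1.16 to -0.81 for Opalin. Of all genes 1213 fell, against 1873 with array quality weights and 792 with the median of probe sets. Of the myelin list 13 fell, against 22 with median centring and 21 with array weights. Gjb1 minus Opalin turned to 0.038 with the median of probe sets and ran from -0.29 to 0.16 without single arrays, and Ugt8 minus Gjb1 ran from -0.22 to 0.023. The median also turned B4galnt1 to 0.065. For exon usage 1482 genes passed, against 729 by the Simes p and 861 to 2101 without single arrays. The Simes p was 0.0673 for Mag and 0.156 for Ugt8, while that of Mbp passed close to the threshold. Without single arrays the adjusted p was 0.0255 to 0.24 for Mag and 0.0119 to 0.212 for Ugt8. For Mbp it was 0.0588 with the filter at the 50th percentile. In the relative test 2155 probe sets passed in all, against 897 without variance moderation, 4243 with array weights and 1151 to 3183 without single arrays. Of the 48 it called 2, against 1 with the 50th percentile filter or the median of the other probe sets, 4 without moderation, 5 with array weights and 0 to 3 without single arrays. Mag 6697543 missed the threshold without moderation (-0.87) and against the median of the others (-0.74), and ran from -1.003 to -0.81 without single arrays. Mbp 6714171 missed it without moderation (0.99), ran from 0.87 to 1.09 without single arrays, and was not measured under the 50th percentile filter. Mag 6067354, near no change, stood at 0.00624 with array weights and -0.26 to 0.16 without single arrays. The causes were not tested. No paired analysis was possible because the rat numbers are not shared between the groups. Dim probe sets near background, as in Gjb1 in EAE, limit what a fold can show.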
